A study of Mus musculus with 9 samples.

Results

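The genes described here make, move and burn lactate and pyruvate, and were read in peritoneal exudate cells of diabetic and nondiabetic mice. They were chosen by name, as the rows of the deposited expression table that carry the symbols Ldha, Ldhb, Slc16a1, Slc16a3, Bsg, Mpc1, Mpc2, Pdha1, Pdk1 and Pdk3, and all 10 were found among the 41096 genes of the table. The study sequenced messenger RNA from 9 samples, and its title names lactate and the receptor GPR132 in diabetic atherosclerosis. The 4 diabetic samples (diabetic 1 to 4) came from APOE-/- mice injected into the peritoneum with streptozotocin, a toxin of the insulin-producing beta cells, at 40 mg/kg on each of 5 days, starting at 8 weeks of age. The 5 control samples (control 1 to 5) came from APOE-/- mice of the same age that received citrate buffer in place of the toxin. Both groups then ate western diet for 8 weeks, were given 1.5 mL of 3% thioglycollate, which draws leukocytes into the peritoneal cavity, and were rinsed with 10 mL of saline 3 days later. The APOE-/- genotype, whose allele the labels do not describe, the diet and the thioglycollate are thus common to both groups, and no wild-type or unstimulated mice are among the samples. The labels call the cells peritoneal macrophages, describe no sorting, and do not say whether a sample is 1 mouse or several. The p-values accordingly reflect only how far these samples spread.

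Lactate and pyruvate are interconverted by lactate dehydrogenase, whose muscle-type subunit is encoded by Ldha and whose heart-type subunit is encoded by Ldhb. Lactate crosses the plasma membrane with a proton through monocarboxylate transporters, among them the product of Slc16a1, which is widespread, and that of Slc16a3, which is typical of cells with a high rate of glycolysis. Both need the chaperone basigin (Bsg) to reach the cell surface. Pyruvate enters mitochondria through a carrier built from the products of Mpc1 and Mpc2 and is turned into acetyl-CoA by pyruvate dehydrogenase, whose catalytic alpha subunit is encoded by Pdha1 and which the kinases Pdk1 and Pdk3 switch off by phosphorylation. In macrophages, inflammatory activation is known to raise glycolysis and lactate release.

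Levels are FPKM, that is reads relative to gene length and to a divisor for each sample, as the authors deposited them. The values corresponded to 14156421 to 16169060 reads in genes per sample, and 10658 to 11219 genes per sample reached 1 FPKM. The divisor that the values imply was not the number of reads in genes. In control 2 it was 14722692, below 16169060 reads in genes, and in diabetic 4 it was 15599272, above 14469116. How it was set is not given in the sources used here. Across the 11193 genes tested, 300 were higher and 233 lower in diabetic samples at an adjusted p below 0.05 with limma on log2(FPKM + 1). The macrophage marker Adgre1 stood at 185 to 310 FPKM in diabetic samples and 256 to 310 FPKM in control samples, so macrophage RNA was present as labelled. Apoe itself was listed at 135 to 296 FPKM in diabetic samples and 231 to 373 FPKM in control samples, and reads summed over the gene cannot show whether they come from a disrupted allele. Lymphocyte markers were present too. Cd3e, a subunit of the T cell receptor complex, reached 15.8, 26.3, 7.59 and 19.8 FPKM in diabetic samples 1 to 4, against 3.05, 1.84, 3.36, 2.38 and 2.81 FPKM in control samples 1 to 5. In such mixed cells, fewer cells of a type and less RNA per cell cannot be told apart.

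None of the 10 genes passed the test, with all 10 above the filter on low values. The background share of all genes tested that passed was 4.76%, made up of 2.68% higher and 2.08% lower in diabetic samples. At an unadjusted p below 0.05 there were 4 of the 10 (Ldha, Slc16a1, Slc16a3 and Mpc1), beside 2511 of all genes tested (22.4%). A count-based fit (limma's voom on recovered reads) also passed 0 of the 10, and a fit that weights samples by how closely they follow the model (limma array weights) passed 1, Slc16a3, at a log2 fold change of -0.75 and an adjusted p of 0.022. The median log2 fold change of the 10, diabetic over control, was -0.05, beside -0.01 over all genes tested. The values in all 4 diabetic samples lay below those in all 5 control samples for 2 of the 10, Ldha and Slc16a3, which also holds for 4.60% of all genes tested. For 0 of the 10 did they all lie above, as they did for 4.82% of all genes tested. The other 8 overlapped between groups.

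**Figure D1:**
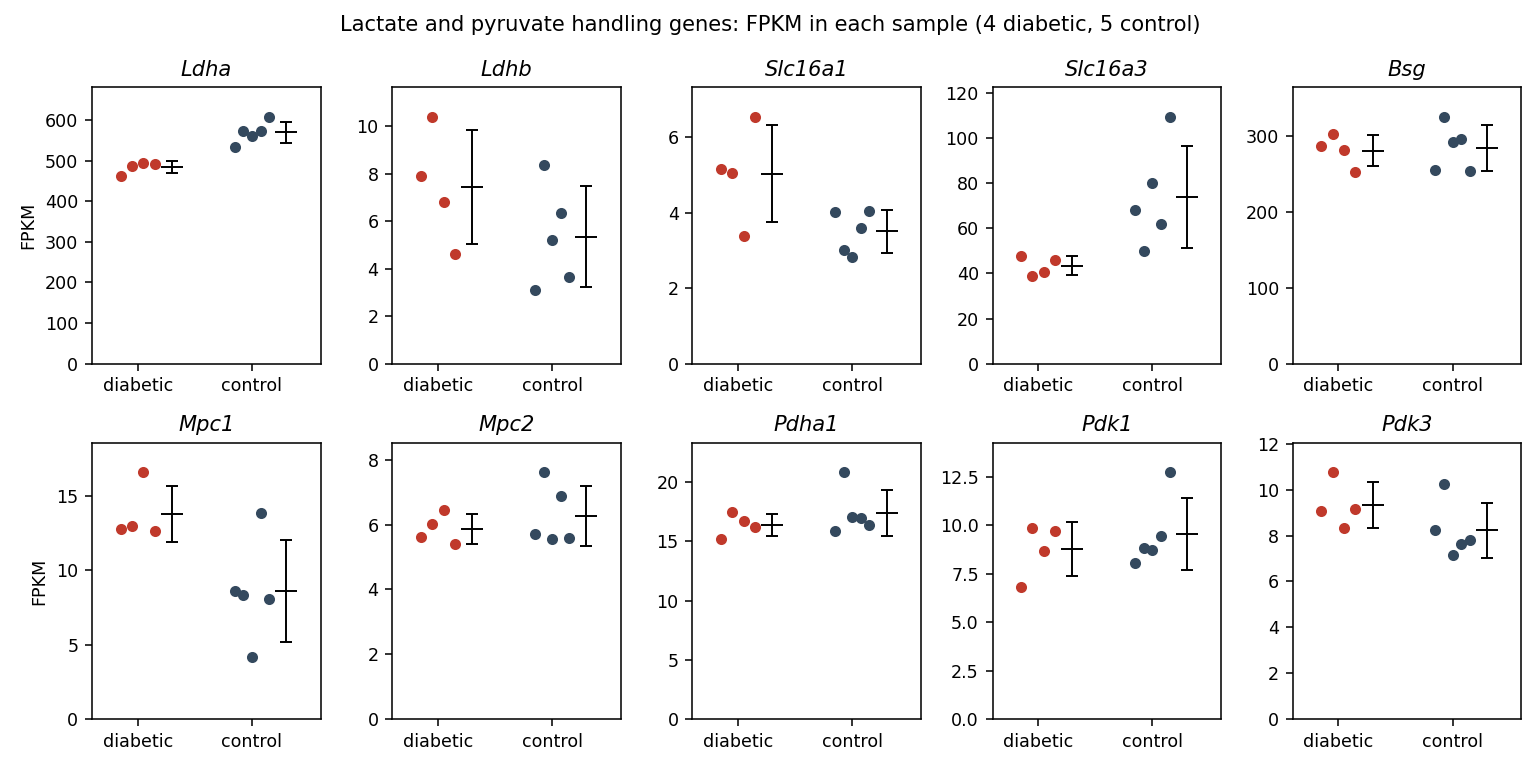
FPKM of each of the 10 genes in every sample, with 4 diabetic samples left of 5 control samples in each panel, the mean as a dash and its SD as a bar. Ldha and Slc16a3 are the panels in which the diabetic points all lie below the control points.

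Ldha was the most abundant of the 10 genes. It lies on chromosome 7 (49511849 to 49525997, + strand, as the table gives it) and has the identifier MGP_C57BL6NJ_G0032755. It stood at 463, 488, 494 and 492 FPKM in diabetic samples 1 to 4, against 535, 572, 562, 572 and 608 FPKM in control samples 1 to 5. The highest diabetic sample thus lay below the lowest control sample, and the diabetic samples were close together, with a coefficient of variation of 2.98%, where the median tested gene had 16.4% in the same samples. The means were 484 ± 14.4 FPKM in diabetic samples (SD, n = 4) and 569.7 ± 26.2 FPKM in control samples (SD, n = 5), a difference of -15.0%. The log2 fold change was -0.23 with an SE of 0.094 and a 95% interval of -0.44 to -0.03, and it did not pass after adjustment over all genes (limma, adjusted p = 0.17, and 0.094 to 0.39 over its 19 alternatives). In fold, that interval spans 0.737 to 0.982. From 21067 to 29195 reads per sample were assigned to the gene. A total of 19 processed pseudogene rows carry its protein name, the highest at a mean of 4.33 FPKM, and how the counting divided reads between them is not given in the sources used here.

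Ldhb (chromosome 6, 151328683 to 151347760, - strand, MGP_C57BL6NJ_G0031910) was far lower. It stood at 7.91, 10.4, 6.80 and 4.62 FPKM in diabetic samples 1 to 4, against 3.09, 8.36, 5.21, 6.35 and 3.67 FPKM in control samples 1 to 5. The groups overlapped, with the highest value in diabetic 2 and the lowest in control 1. Its log2 fold change was 0.43 with an SE of 0.26 and a 95% interval of -0.16 to 1.02 (limma, adjusted p = 0.37), so that the data leave room for a fold of 0.897 to 2.02. With 78 to 249 reads per sample, Ldhb had the least depth of the 10.

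The ratio of Ldha to Ldhb, a description with no test, is unaffected by scaling between samples but depends on the deposited gene lengths. It was 58.5, 47.0, 72.7 and 106.7 in diabetic samples 1 to 4, against 173, 68.4, 107.7, 90.1 and 165.7 in control samples 1 to 5. The mean was 71.2 ± 25.9 in diabetic samples (SD, n = 4) and 121 ± 46.4 in control samples (SD, n = 5). The ranges overlapped, with control 2 below diabetic 3 and diabetic 4, and control 4 below diabetic 4.

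Of the lactate transporters, Slc16a3 was the more abundant. It encodes MCT4, known as a lactate exporter, and lies on chromosome 11 (129277843 to 129290291, + strand, MGP_C57BL6NJ_G0019924). Its level was 47.8, 38.8, 40.7 and 46.1 FPKM in diabetic samples 1 to 4, against 68.2, 49.7, 80.2, 61.8 and 109 FPKM in control samples 1 to 5. The groups did not overlap, although diabetic 1 and control 2 were close, and control 5 stood above the rest. The means were 43.4 ± 4.28 FPKM in diabetic samples (SD, n = 4) and 73.8 ± 22.7 FPKM in control samples (SD, n = 5), a difference of -41.3%. The log2 fold change was -0.71 with an SE of 0.19 and a 95% interval of -1.14 to -0.28, a fold of 0.455 to 0.823, and it ranked 685 among all genes by p (limma, adjusted p = 0.062). It passed in 2 alternatives, with array weights and without control 2, at log2 fold changes of -0.75 and -0.84 (limma, adjusted p = 0.022 and 0.031). Over its 19 alternatives the adjusted p ranged from 0.022 to 0.17.

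The separation of the groups in both genes depended on the scaling between samples. With each sample scaled to the same upper quartile, Ldha did not overlap (at most 506.8 in diabetic samples, at least 542.3 in control samples) but Slc16a3 did, at up to 48.2 in diabetic samples and down to 47.2 in control samples. With each sample scaled to the same FPKM sum, both overlapped, Ldha with at most 519.0 in diabetic samples and at least 514.0 in control samples. The log2 fold changes of both stayed negative in all 19 alternatives.

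Slc16a1 (chromosome 3, 109913316 to 109935172, + strand, MGP_C57BL6NJ_G0028123) encodes MCT1, which carries lactate in either direction. It was the lowest of the 10 genes in mean FPKM in both groups, at 5.16, 5.05, 3.38 and 6.53 FPKM in diabetic samples 1 to 4, against 4.01, 3.01, 2.83, 3.60 and 4.04 FPKM in control samples 1 to 5. Diabetic samples 1, 2 and 4 lay above every control sample, and diabetic 3 lay within the control range. The means were 5.03 ± 1.29 FPKM in diabetic samples (SD, n = 4) and 3.50 ± 0.560 FPKM in control samples (SD, n = 5). On the log2 scale the fold change was 0.41 with an SE of 0.16 and a 95% interval of 0.06 to 0.75, not past the threshold (limma, adjusted p = 0.16). Without diabetic 3, the log2 fold change was 0.55 and passed (limma, adjusted p = 0.031), and over its 18 alternatives the adjusted p ranged from 0.031 to 0.37.

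Set against each other, the transporters gave a ratio that separated the groups. There were 9.27, 7.68, 12.0 and 7.06 Slc16a3 per Slc16a1, in FPKM, in diabetic samples 1 to 4, against 17.0, 16.5, 28.3, 17.1 and 27.1 in control samples 1 to 5. The mean ratio was 9.02 ± 2.22 in diabetic samples (SD, n = 4) and 21.2 ± 5.94 in control samples (SD, n = 5), with no overlap. No test was made of it, since it combines genes already described, and Slc16a3 alone did not overlap between groups as deposited. How many ratios of other gene pairs separate the groups was not computed.

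Bsg (chromosome 10, 83021517 to 83028994, + strand, MGP_C57BL6NJ_G0017848), the chaperone of both transporters, was second in abundance and the nearest of the 10 to no difference. It stood at 286, 302, 281 and 252 FPKM in diabetic samples 1 to 4, against 255, 325, 292, 296 and 254 FPKM in control samples 1 to 5. Its log2 fold change was -0.02 with an SE of 0.11 (limma, adjusted p = 0.95), and its 95% interval of -0.26 to 0.23 allows a fold of 0.833 to 1.17. Its sign changed with the setting, as 5 alternatives gave a positive value. Bsg per summed transporter was 5.41, 6.89, 6.37 and 4.79 in diabetic samples 1 to 4, against 3.54, 6.16, 3.52, 4.53 and 2.24 in control samples 1 to 5. The groups overlapped in that ratio through control 2.

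**Figure D2:**
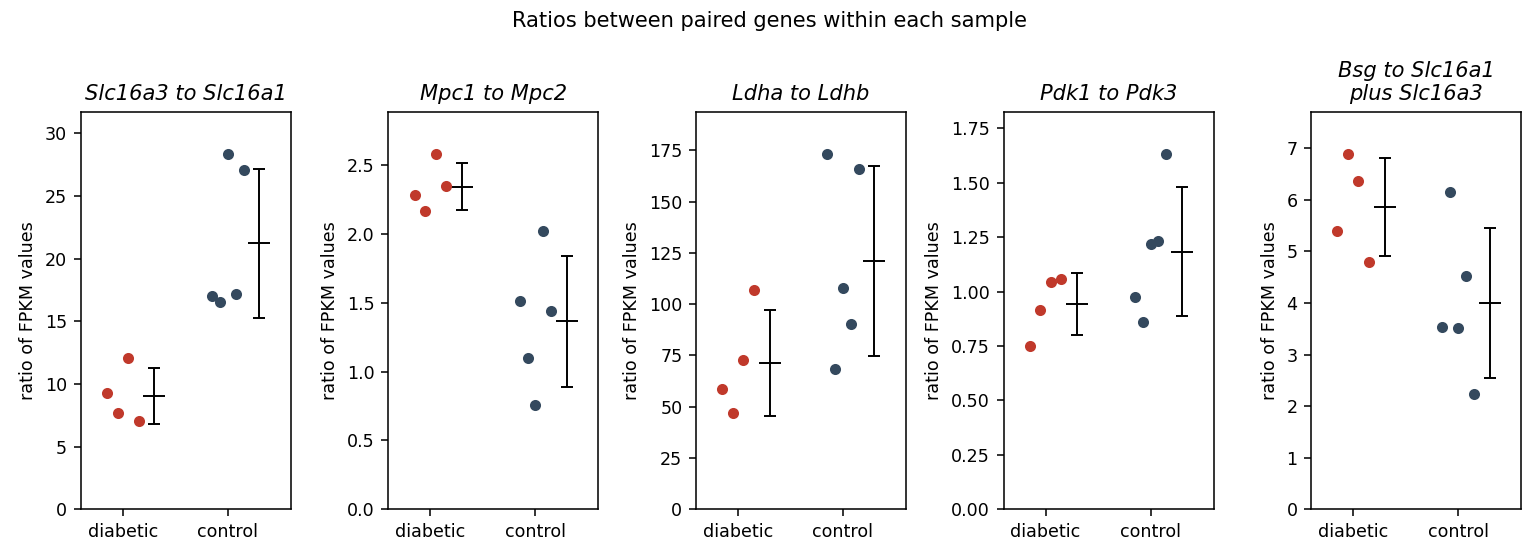
Ratios of FPKM within each sample for 5 pairings of the genes, in 1 panel each, with 4 diabetic samples left of 5 control samples, the mean as a dash and its SD as a bar. The ratios of Slc16a3 to Slc16a1 and of Mpc1 to Mpc2 do not overlap between groups, and the other 3 do.

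Promoters are shown for the 4 genes at an unadjusted p below 0.05, since they differ in sign, with Ldha and Slc16a3 lower and Slc16a1 and Mpc1 higher in mean FPKM in diabetic samples. Each stretch runs from 250 bases before to 50 after the start of transcription in RefSeq (build GRCm38.p6), 5′ to 3′ on the gene's strand. Capitals mark matches on either strand to ACGTG or GCGTG, the cores of hypoxia response elements, and to the E-box CACGTG, which Myc and related factors bind and which holds an ACGTG on each strand. Ldha is at chr7:46845554-46845853 (+), Slc16a3 at chr11:120948817-120949116 (+), Slc16a1 at chr3:104638414-104638713 (+) and Mpc1 at chr17:8283537-8283836 (+).
Ldha: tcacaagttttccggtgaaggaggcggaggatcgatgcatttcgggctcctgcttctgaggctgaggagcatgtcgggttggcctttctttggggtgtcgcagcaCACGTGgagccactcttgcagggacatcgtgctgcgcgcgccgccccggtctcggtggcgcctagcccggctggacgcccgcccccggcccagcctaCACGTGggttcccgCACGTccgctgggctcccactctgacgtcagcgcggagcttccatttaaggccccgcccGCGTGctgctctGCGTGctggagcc
Slc16a3: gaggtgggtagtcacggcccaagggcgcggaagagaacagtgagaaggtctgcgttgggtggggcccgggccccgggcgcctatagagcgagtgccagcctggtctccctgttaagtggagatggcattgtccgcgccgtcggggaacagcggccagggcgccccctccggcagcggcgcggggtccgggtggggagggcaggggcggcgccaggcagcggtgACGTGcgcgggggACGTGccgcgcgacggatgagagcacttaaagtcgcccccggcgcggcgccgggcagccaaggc
Slc16a1: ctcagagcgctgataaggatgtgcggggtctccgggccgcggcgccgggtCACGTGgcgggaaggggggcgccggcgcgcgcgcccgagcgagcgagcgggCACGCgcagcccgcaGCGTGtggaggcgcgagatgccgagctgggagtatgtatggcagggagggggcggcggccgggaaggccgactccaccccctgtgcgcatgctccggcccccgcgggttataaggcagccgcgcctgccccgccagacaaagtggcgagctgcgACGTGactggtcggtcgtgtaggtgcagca
Mpc1: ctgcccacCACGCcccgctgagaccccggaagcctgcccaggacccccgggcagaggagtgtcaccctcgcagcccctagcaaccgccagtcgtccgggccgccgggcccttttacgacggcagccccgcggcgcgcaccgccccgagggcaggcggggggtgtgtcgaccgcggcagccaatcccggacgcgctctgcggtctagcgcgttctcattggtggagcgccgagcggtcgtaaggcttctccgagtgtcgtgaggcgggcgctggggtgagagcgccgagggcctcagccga
The Ldha promoter shown held 7 core matches, with E-boxes starting at -145 and -48 from the start of transcription. Slc16a3 held 2 copies of ACGTG, at -27 and -14, and no E-box. Slc16a1, whose difference had the other sign, held 5 core matches, including an E-box at -200, and Mpc1 held 1, a GCGTG at -242. RefSeq gives Ldha, Mpc1 and Pdk1 a second promoter each, not shown. These held 2 copies of GCGTG and no E-box for Ldha, and 0 cores for Mpc1 and for Pdk1. RefSeq promoters were matched for 9 of the 10 genes, and the first promoter of all 9 held at least 1 core, while 2 (Ldha and Slc16a1) held an E-box. Among all 32851 mouse promoters of the same length, 43.8% held a core (19.6% ACGTG, 32.4% GCGTG) and 7.15% an E-box. That background counts second promoters too, so it is not like for like with first promoters. It was not matched for GC content, which was 57.3% to 73.7% in the 9 first promoters. Cores were thus present in promoters of genes of either sign, and a match describes letters in the window only.

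Mpc1 and Mpc2 encode the partners of the mitochondrial pyruvate carrier. Mpc1 (chromosome 17, 6029500 to 6044276, + strand, MGP_C57BL6NJ_G0023543) was 12.8, 13.02, 16.6 and 12.7 FPKM in diabetic samples 1 to 4, against 8.63, 8.35, 4.20, 13.9 and 8.05 FPKM in control samples 1 to 5. All 4 diabetic samples were above the control mean, but control 4 lay above 3 of them. The means were 13.8 ± 1.88 FPKM in diabetic samples (SD, n = 4) and 8.62 ± 3.45 FPKM in control samples (SD, n = 5). A log2 fold change of 0.69 was found, with an SE of 0.24 and a 95% interval of 0.15 to 1.23, short of the threshold (limma, adjusted p = 0.13). Without control 4 it was 0.86 and passed (limma, adjusted p = 0.048), and over its 19 alternatives the adjusted p ranged from 0.048 to 0.27. From 125 to 494 reads per sample were assigned to the gene.

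Mpc2 (chromosome 1, 176680316 to 176701976, + strand, MGP_C57BL6NJ_G0017096) showed no such difference in level. It was 5.60, 6.02, 6.43 and 5.39 FPKM in diabetic samples 1 to 4, against 5.70, 7.60, 5.57, 6.87 and 5.59 FPKM in control samples 1 to 5, and the groups overlapped. On the log2 scale the fold change was -0.08 with an SE of 0.11 and a 95% interval of -0.32 to 0.17 (limma, adjusted p = 0.73). The ratio of Mpc1 to Mpc2 was 2.28, 2.16, 2.58 and 2.35 in diabetic samples 1 to 4, against 1.51, 1.10, 0.755, 2.02 and 1.44 in control samples 1 to 5. In that ratio control 4 no longer lay above any diabetic sample, and the groups did not overlap. Its mean was 2.34 ± 0.174 in diabetic samples (SD, n = 4) and 1.37 ± 0.475 in control samples (SD, n = 5), given as a description. Diabetic 2 (2.16) and control 4 (2.02) were close. As for the transporters, how many ratios of other gene pairs separate the groups was not computed.

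Pdha1 (chromosome X, 162740585 to 162757354, - strand, MGP_C57BL6NJ_G0036714) was 15.2, 17.4, 16.7 and 16.2 FPKM in diabetic samples 1 to 4, against 15.8, 20.8, 17.0, 17.0 and 16.4 FPKM in control samples 1 to 5. The ranges overlapped, and control 2 stood above the rest. The log2 fold change was -0.08 with an SE of 0.098 (limma, adjusted p = 0.68). Its 95% interval reached from -0.30 to 0.14. Map3k15, on the other strand, overlaps Pdha1 in the table and had a mean of 2.28 FPKM, and without the strand setting, reads from the shared stretch cannot be told apart.

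The kinases that inactivate the complex were near each other in level. Pdk1 (chromosome 2, 74210602 to 74242854, + strand, MGP_C57BL6NJ_G0026246), a known target of the hypoxia factor HIF-1, was 6.81, 9.84, 8.70 and 9.70 FPKM in diabetic samples 1 to 4, against 8.04, 8.83, 8.71, 9.43 and 12.7 FPKM in control samples 1 to 5. The groups overlapped, and control 5 was the highest sample. Its log2 fold change was -0.11 with an SE of 0.14 and a 95% interval of -0.42 to 0.21 (limma, adjusted p = 0.70). Without control 5 the log2 fold change was -0.01.

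Pdk3 (chromosome X, 92884217 to 92959713, - strand, MGP_C57BL6NJ_G0036404) was 9.07, 10.7, 8.32 and 9.16 FPKM in diabetic samples 1 to 4, against 8.25, 10.2, 7.16, 7.65 and 7.80 FPKM in control samples 1 to 5. Each diabetic sample exceeded the control mean, yet the ranges overlapped through control 2. Between groups the log2 fold change was 0.17 with an SE of 0.11 and a 95% interval of -0.09 to 0.42 (limma, adjusted p = 0.42). Pdk1 per Pdk3 was 0.751, 0.916, 1.04 and 1.06 in diabetic samples 1 to 4, against 0.976, 0.862, 1.22, 1.23 and 1.63 in control samples 1 to 5, and overlapped as well.

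**Figure D3:**
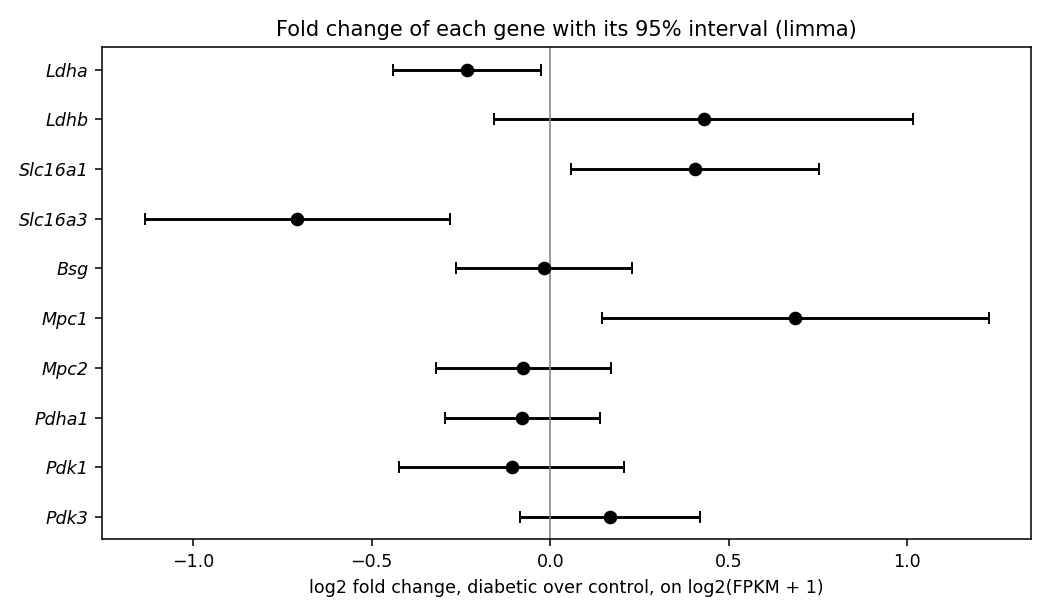
Log2 fold change of the 10 genes, diabetic over control, on the log2(FPKM + 1) scale, with 95% intervals from limma that are not adjusted for the number of genes. The intervals of Slc16a3, Ldha, Slc16a1 and Mpc1 leave out 0, and those of the other 6 include it.

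In mean FPKM the genes kept the same order at the top in both groups, with Ldha first, then Bsg, Slc16a3 and Pdha1, and Slc16a1 last. The sample ranges of those top 4 did not overlap in either group. Below them in diabetic samples, in the order Mpc1, Pdk3, Pdk1, Ldhb, Mpc2 and Slc16a1, each gene overlapped in range with the next except Mpc1 (12.7 FPKM at the lowest) with Pdk3 (10.7 FPKM at the highest). In control samples the order was Pdk1, Mpc1, Pdk3, Mpc2, Ldhb and Slc16a1, and each overlapped with the next. The extreme samples differed between genes. Control 5 was the highest sample for Ldha, Slc16a3 and Pdk1, and control 2 for Bsg, Mpc2 and Pdha1. Control 3 was the lowest for Slc16a1, Mpc1 and Pdk3, and diabetic 1 for Ldha, Pdha1 and Pdk1. Among all genes tested, control 2 was the highest sample for 22.1% and control 5 for 9.64%. The divisor implied for control 2 lay below its reads in genes (14722692 against 16169060). That for control 5 lay above them (16111802 against 15427173). The part of the divisors in these ranks was not tested. The summed FPKM of 13 neutrophil markers was 121 to 540 in diabetic samples and 117 to 1150 in control samples, with 4 of the 13 under 1 FPKM in every sample and none at 0. S100a8, an abundant neutrophil protein gene, was 18.5, 70.0, 59.8 and 119 FPKM in diabetic samples 1 to 4, against 105, 16.4, 63.9, 10.9 and 262 FPKM in control samples 1 to 5. Both the sum and S100a8 were highest in control 5, and both were lowest among control samples in control 2 and control 4, which also had the lowest Slc16a3 values of their group. Diabetic 1, with the lowest sum of the diabetic samples, had their highest Slc16a3 value. The part of neutrophils in the values of Ldha, Slc16a3 and Pdk1 was not tested. Without control 5 the log2 fold change was -0.56 for Slc16a3 (limma, adjusted p = 0.074) and -0.21 for Ldha (limma, adjusted p = 0.28).

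**Figure D4:**
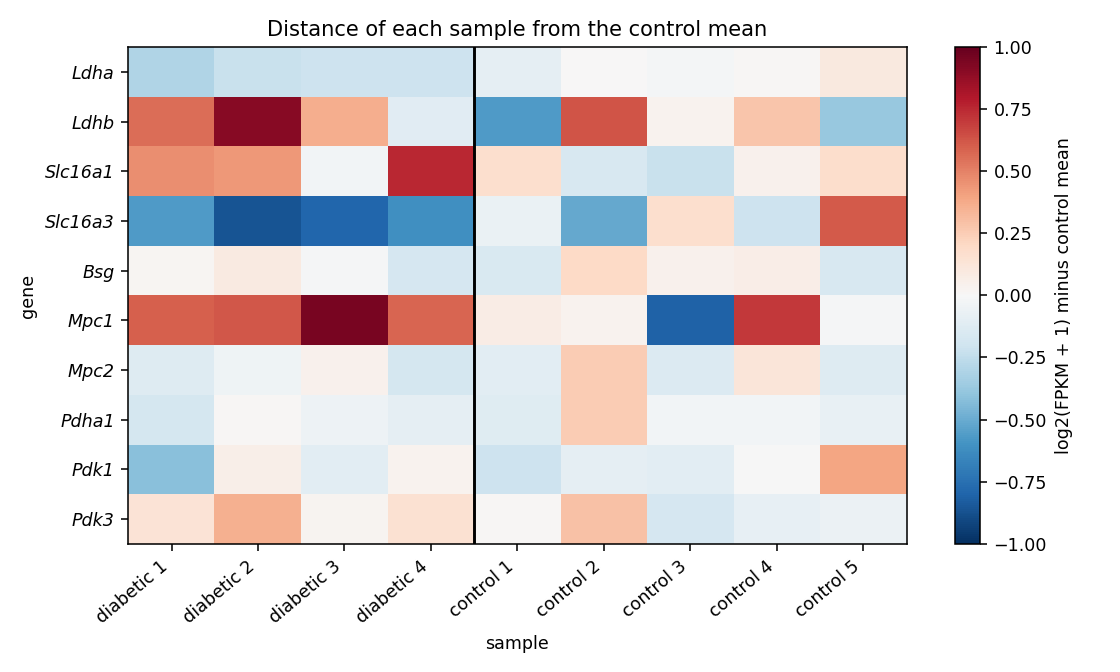
Distance of each sample from the control mean on the log2(FPKM + 1) scale for the 10 genes, diabetic samples left of control samples, with colour for sign and size. Ldha and Slc16a3 are below the control mean in all 4 diabetic samples, and Mpc1 and Pdk3 are above it in all 4.

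The rest of the pathway was read from lists of related genes, whose means are given ± SD over 4 diabetic and 5 control samples. Of the other lactate dehydrogenases, Ldhc, Ldhd and Ldhal6b, 0 of 3 reached the filter. Of 14 other monocarboxylate transporters and their chaperone embigin (Emb), 5 were tested and 0 passed, with a median log2 fold change of -0.29. Slc16a6, an exporter of ketone bodies in zebrafish, averaged 6.24 ± 0.946 FPKM in diabetic samples and 7.92 ± 0.645 FPKM in control samples, with a log2 fold change of -0.31 (limma, adjusted p = 0.13). Emb, which can stand in for basigin, averaged 72.3 ± 16.7 FPKM in diabetic samples and 52.6 ± 13.1 FPKM in control samples, with a log2 fold change of 0.46 (limma, adjusted p = 0.18). None of the named transporters or chaperones thus passed in either direction.

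Around pyruvate dehydrogenase, 8 of 10 further subunits, kinases and phosphatases were tested and 0 passed, with a median log2 fold change of -0.02. The phosphatases that reverse the kinases' effect had the smallest p, Pdp1 with a log2 fold change of -0.26 (limma, adjusted p = 0.21) and Pdp2 with -0.14 (limma, adjusted p = 0.58). Pdk4, a kinase known to rise in fasting and in diabetic muscle, lay under the filter and is named after its values were seen. It had 2.03, 1.33, 0.378 and 0.109 FPKM in diabetic samples 1 to 4, against 0.366, 0, 0.0598, 0 and 0.194 FPKM in control samples 1 to 5, from 0 to 112 reads. The groups overlapped through diabetic 4.

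Among enzymes that supply or use pyruvate elsewhere, 13 of 16 in the table were tested and 0 passed, with a median log2 fold change of -0.03. Pkm, the pyruvate kinase that makes pyruvate in the last step of glycolysis, was 586, 558, 492 and 535 FPKM in diabetic samples 1 to 4, against 682, 651, 822, 607 and 834 FPKM in control samples 1 to 5. Its groups did not overlap, but its log2 fold change of -0.40 with an SE of 0.13 did not pass (limma, adjusted p = 0.10). Gpt2, which exchanges pyruvate and alanine, averaged 1.16 ± 0.344 FPKM in diabetic samples and 1.76 ± 0.362 FPKM in control samples, with a log2 fold change of -0.36 (limma, adjusted p = 0.18).

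Upstream in glycolysis, 17 of 20 listed genes were found by symbol and tested, while Pgk1, Pgam1 and Eno1 were not found. Of the 17, 2 fell and 0 rose in diabetic samples, and 12 had a negative log2 fold change, with a median of -0.21. Over all genes tested, 2.08% were lower past the threshold, 5851 (52.3%) had a negative log2 fold change, and the median was -0.01. Tpi1, the triose phosphate isomerase, fell to 192 ± 7.46 FPKM in diabetic samples, against 279 ± 29.6 FPKM in control samples (log2 fold change -0.53 with an SE of 0.11, limma, adjusted p = 0.022). Pfkfb4, which makes an activator of phosphofructokinase, fell to 9.18 ± 1.82 FPKM in diabetic samples, against 14.3 ± 2.49 FPKM in control samples (log2 fold change -0.59 with an SE of 0.15, limma, adjusted p = 0.045). Of the 9 fits that leave out a sample, Tpi1 passed in 5 and missed without diabetic 1, 2 or 4 or control 3, at an adjusted p of up to 0.079. Pfkfb4 passed in 1, without diabetic 3, and its adjusted p in the others reached 0.138 (limma). Control 5 was the highest sample for 7 of the 17 genes, as it was for Ldha.

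Of 28 listed hypoxia response genes outside glycolysis, 26 were found by symbol (not Vegfa or Selenbp1) and 22 were tested. Of the 22, 1 fell and 0 rose, and 15 had a negative log2 fold change, with a median of -0.10. Over all genes tested, 2.08% were lower and 2.68% higher past the threshold, and 52.3% had a negative log2 fold change. The gene that passed was Pdgfb, a growth factor chain, at 13.1, 7.94, 14.3 and 9.64 FPKM in diabetic samples 1 to 4, against 22.4, 16.0, 28.7, 20.0 and 18.7 FPKM in control samples 1 to 5. All diabetic values were below all control values, and the log2 fold change was -0.86 with an SE of 0.19 (limma, adjusted p = 0.030). It passed in 3 of the 9 fits that leave out a sample, those without diabetic 3, control 2 or control 5, and its adjusted p reached 0.099 in the others (limma). Control 5 was the highest sample for 9 of the 22 genes.

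Of 12 tested regulators of lactate and pyruvate genes, 1 rose and 1 fell, beside 2.68% higher and 2.08% lower over all genes tested, and the median log2 fold change was 0.04. Foxo1, a factor that insulin signalling keeps out of the nucleus, averaged 7.08 ± 1.72 FPKM in diabetic samples and 3.60 ± 0.396 FPKM in control samples (log2 fold change 0.79 with an SE of 0.15, limma, adjusted p = 0.019). Esrra, a nuclear receptor that drives mitochondrial genes, averaged 15.7 ± 2.72 FPKM in diabetic samples and 23.6 ± 2.81 FPKM in control samples (log2 fold change -0.57 with an SE of 0.13, limma, adjusted p = 0.033). With a sample left out, Foxo1 missed without diabetic 2, diabetic 4 or control 3 (limma, adjusted p up to 0.068). Esrra passed in 3 such fits, those without diabetic 1, diabetic 3 or control 1, and its adjusted p reached 0.106 in the others.

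Of 7 listed symbols for sensing lactate or for lactylation, the addition of lactate to proteins, 6 were found. Of these, 4 were tested and 0 passed the threshold. The lactate receptor gene Hcar1 lay under the filter, at 0.0196 FPKM in control 1 and 0 in every other sample. Ndrg3, a protein that binds lactate, averaged 10.2 ± 2.59 FPKM in diabetic samples and 6.19 ± 1.27 FPKM in control samples (log2 fold change 0.63, limma, adjusted p = 0.059). Gpr132, the receptor in the study's title, averaged 37.3 ± 5.82 FPKM in diabetic samples and 26.5 ± 3.71 FPKM in control samples (log2 fold change 0.47, limma, adjusted p = 0.073). Ndrg3 passed in 6 of 19 alternatives (limma, adjusted p from 0.015 to 0.16 over all 19). Gpr132 passed in 2 of 19 (limma, adjusted p from 0.019 to 0.20). As a reference for scaling, 1 of 11 housekeeping genes fell, beside 2.08% of all genes tested, and the median log2 fold change of the 11 was 0.04. The gene that fell was Ywhaz, at 6.19 ± 0.613 FPKM in diabetic samples and 9.40 ± 1.50 FPKM in control samples (limma, adjusted p = 0.039). Only 130 to 260 reads per sample were assigned to it. Gapdh is in both this list and the glycolysis list. Ywhaz passed in 2 of the 9 fits that leave out a sample, those without diabetic 3 or control 4, and reached an adjusted p of 0.123 in the others (limma).

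**Figure D5:**
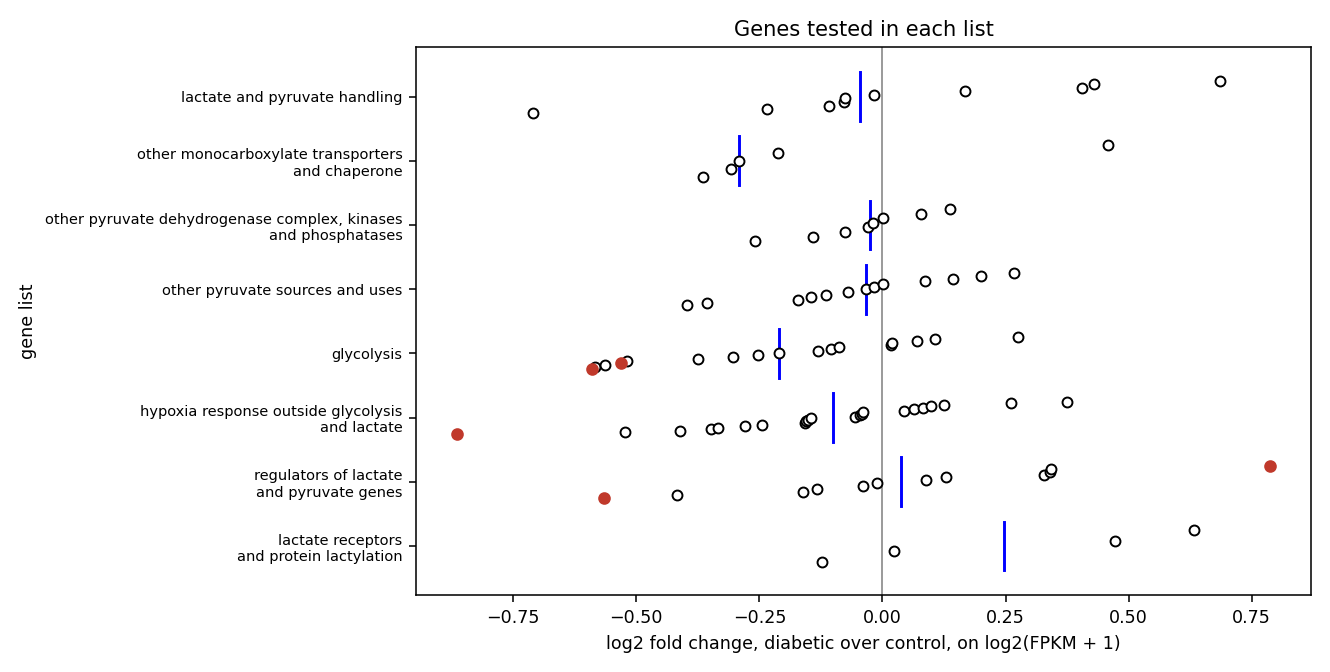
Log2 fold change, diabetic over control, of each tested gene by list, with passing genes filled and the median of each list as a blue line. The glycolysis median is -0.21 and that of the 10 lactate and pyruvate genes is -0.05.

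Summed markers of T cells and of large peritoneal macrophages did not overlap between groups, and the sums of the other 10 marker lists did. The summed FPKM of 18 T cell markers was 177 to 630 in diabetic samples and 63.0 to 102 in control samples, with 16 of the 18 higher past the threshold and none at 0. For 14 B cell markers it was 1639 to 3512 in diabetic samples and 1072 to 2255 in control samples, with 3 higher. The 9 natural killer cell markers summed to 92.9 to 124 FPKM in diabetic samples and 44.8 to 94.4 FPKM in control samples, with 2 higher and none at 0. Of 13 macrophage markers, 12 were found by symbol. These summed to 6088 to 10247 FPKM in diabetic samples and 7722 to 11570 FPKM in control samples, with 1 lower. The 10 markers of large peritoneal macrophages, the resident type of the cavity, summed to 198 to 368 FPKM in diabetic samples and 145 to 189 FPKM in control samples, with no overlap and 1 marker higher. The 8 monocyte markers summed to 741 to 980 FPKM in diabetic samples and 839 to 1018 FPKM in control samples, with 1 higher. Dendritic cell markers summed to 125 to 229 FPKM in diabetic samples and 82.6 to 131 FPKM in control samples, with 1 of 9 higher and 1 lower. Sums overlapped as well for mast cell and basophil markers, at 114 to 381 FPKM in diabetic samples and 285 to 709 FPKM in control samples. Eosinophil markers, 5 of 7 found by symbol, summed to 8.41 to 17.8 FPKM in diabetic samples and 14.7 to 51.6 FPKM in control samples. In both lists 0 markers were past the threshold. Erythroid markers, 3 of 6 found by symbol, summed to 0.917 to 41.5 FPKM in diabetic samples and 6.36 to 158 FPKM in control samples. Mesothelial and fibroblast markers summed to 23.3 to 49.5 FPKM in diabetic samples and 15.5 to 41.0 FPKM in control samples. No marker found for these lists was at 0 in every sample. Foxo1, Slc16a1, Mpc1 and Emb are expressed by lymphocytes as well as macrophages, and the part of any of these cell types in the values of the 10 genes was not tested. Diabetic 3 had the lowest T cell and B cell sums of its group, the lowest Slc16a1 value and the highest Mpc1 value. It also had the group's lowest values of Foxo1 (4.73 FPKM), Gpr132 (29.5 FPKM) and Ndrg3 (7.93 FPKM), but not of Emb. Among control samples, the lowest T cell sum was in control 5 and the lowest Foxo1 value in control 2. The part of lymphocytes in the values of Foxo1, Gpr132, Ndrg3 and Emb was not tested.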

How the data were processed

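Messenger RNA of 9 exudate samples (4 diabetic, 5 control) was sequenced from SMARTER libraries, per the labels' protocols. The authors deposited 1 table of FPKM values with each gene's length, position and strand, per the file headers. GRCm38 and mm10 are named in the submitters' processing notes, while the identifiers belong to a C57BL/6NJ gene set, so positions are printed as deposited and never mixed with the RefSeq GRCm38.p6 promoters. Which aligner, counting tool or strand setting was used is not given in the sources used here. All 9 sample columns were matched by title and 0 were left over. For 485 protein-coding genes the symbol was taken from the UniProt name in the deposited description.

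Every FPKM value times gene length was a multiple of 1 step per sample (100% within 0.05 of a whole number), which gave read numbers. PCR copies may be among them. The comparison used limma 3.58.1 in R 4.3.3 (lmFit, eBayes with trend and robust moderation) on log2(FPKM + 1), a scale that understates the change of low genes, for genes with at least 1 FPKM in at least 4 samples. Group was the only factor, tests were two-sided, and p-values were adjusted by Benjamini-Hochberg over all 11193 genes, with a threshold of 0.05. No count test was the main result because the unit is FPKM. The fit was also run on simulated data, whose outcome is not given here. Those data were drawn for each gene independently with no shift in cell types, so they do not bear on mixed cells. Alternatives changed the pseudocount, filter, scaling, moderation, weights, block or samples, or used voom on the recovered reads.

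The 10 genes and the lists were chosen with earlier results of these data known. All 10 are named. Each list is represented by its passing genes (4 at most, by p), or by the 2 of smallest p if it has no passing gene, and cell types by the markers Cd3e, Adgre1 and S100a8. A further marker is not reported here. Ratios and counts of groups that do not overlap are descriptions. Promoters come from RefSeq, and motifs were searched on both strands.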

Additional observations from a re-analysis of the deposited data

Results flagged for a closer look

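Among 30 groups of values looked at (10 genes and 5 ratios, in both groups), 2 held a sample far from the rest of its group, and chance alone flags about 1 in 20 such groups. Mpc1 was 16.6 FPKM in diabetic 3, where the other diabetic samples were at 12.7 to 13.02 FPKM. Pdha1 was 20.8 FPKM in control 2, where the other control samples were at 15.8 to 17.0 FPKM. Control 2 was also the highest sample for 22.1% of all genes tested. Scaled to the same upper quartile, Pdha1 ranged from 16.1 to 19.8 in control samples, and scaled to the same FPKM sum, from 16.7 to 18.7. Mpc1 in diabetic samples then ranged from 12.9 to 16.6 and from 12.1 to 16.2.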

How the results depend on the processing

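Counts of genes past the threshold depended on the setting. Over all genes, 533 passed; 183 did without a filter on low values, 1304 with array weights and 62 with the replicate number as a replicate block, and leaving out each sample gave 115 (without diabetic 4) to 1126 (without diabetic 3). Of the 10 genes, 0 passed, 1 did with array weights and 0 with the replicate block, and 0 to 1 did when a sample was left out (Slc16a1 without diabetic 3, Slc16a3 without control 2, Mpc1 without control 4). The block gives control 5 a level of its own and so drops it. The same replicate numbers did not pair the samples: their deviations correlated at -0.26 to 0.16 over 4 pairs, and 1 of 4 diabetic samples correlated best with its own number. The groups of 2 genes did not overlap as deposited, of 1 with upper quartile scaling, of 0 with equal FPKM sums, and of 2 to 3 with a sample left out. In glycolysis, 2 passed; 1 did without a filter, with upper quartile scaling, without trend and robust moderation or with voom, 4 with array weights, 0 with the replicate block, and 0 to 4 with a sample left out. In hypoxia genes, 1 passed; 0 did without a filter, 2 with array weights and 0 to 1 with a sample left out. Of the regulators, 2 passed, while 0 did without a filter or with the replicate block, 1 with a filter at 5 FPKM and 0 to 3 with a sample left out. Foxo1 was removed by the filter at 5 FPKM and so was not tested in that fit. Of lactate receptor and lactylation genes, 0 passed; 1 did with either rescaling or with voom, 2 with array weights and 0 to 2 with a sample left out. Of housekeeping genes, 1 passed; 0 did without a filter, with equal FPKM sums, with voom or with the replicate block, and 0 to 1 with a sample left out. Of other transporters, 0 passed; 1 did with array weights and 0 to 1 with a sample left out. The log2 fold change of Bsg, -0.02, was 0.0031 with upper quartile scaling, 0.050 with array weights and 0.022 with voom, and -0.056 to 0.033 with a sample left out. The other 9 genes kept their sign in every alternative run; Slc16a1 has no value with the filter at 5 FPKM. The cause of these changes was not tested. Read numbers were lowest for Ldhb (78 to 249 per sample) and Mpc1 (125 to 494), and the part of depth in their spread was not tested.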
